A study of Capra hircus with 6 samples.

Results

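Transcripts of 7 GABA-A receptor subunit genes, GABRA2, GABRA3, GABRA4, GABRA5, GABRB1, GABRB2 and GABRG1, were followed in the hypothalamus of female Anhuai goats. The genes were chosen by symbol, as 7 of the 20225 genes in the deposited mRNA table, and they held 11 of its 30679 transcripts. There were 3 pubertal goats of 4.5 to 5 months, killed in the late follicular phase, and 3 prepubertal goats of 2.5 to 3 months. All were kept on a farm under the same conditions, and no treatment is described other than terminal anaesthesia. Stage had been assigned from heat checks with bucks and from vulval signs, and stage and age differ together. Total RNA of the tissue was depleted of ribosomal RNA, and 1 strand-specific library per goat was sequenced.

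GABA-A receptors are chloride channels opened by the inhibitory transmitter GABA, and each is a ring built from alpha, beta and usually gamma subunits. GABA binds between an alpha and a beta subunit, and benzodiazepines bind between an alpha and a gamma subunit, so the subunit makeup sets where a receptor sits and how it responds. In the hypothalamus these receptors carry much of the synaptic input to neurons that secrete gonadotropin-releasing hormone, and loss of GABA inhibition is one long-standing account of how puberty starts. The comparison asked how much of each subunit's mRNA the tissue held, and whether the levels or their proportions differed between the stages.

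Expression was given in FPKM, fragments scaled by transcript length and by the mapped fragments of a library. Levels of different genes can thus be set side by side only as far as each transcript model is complete. The models of the subunit genes ran from 2186 nt for GABRA2 to 7209 nt for a form of GABRB2. The part of model length in the order of levels and in the shares was not tested. The deposited tables hold no read counts per gene, so the reads behind a single value are not known. The study lists the reads of each library, which were not used here. Where 3 values are given for a stage, they follow replicates 1, 2 and 3. Over genes with a mean of at least 1 FPKM, the libraries correlated with a Pearson r between 0.967 and 0.987 across genes on log2(FPKM + 1). The label hypothalamus was checked with 12 marker genes, of which 8 were in the table under their symbols. PMCH, the melanin-concentrating hormone gene of the lateral hypothalamus, ran from 673 to 2173 FPKM, and AGRP, a feeding peptide of the arcuate nucleus, from 5.69 to 175.8 FPKM. HDC ran from 95.5 to 140.2, POMC from 22.9 to 428.6 and GNRH1 from 5.34 to 15.98 FPKM. SIM1, at 3.03 to 4.11 FPKM, and OTP, at 0.411 to 1.16 FPKM, were low. OXT, HCRT, NKX2-1 and TRH were not found under their symbols. Of the 7 hypothalamic markers tested in limma, 2, POMC and GNRH1, were higher in pubertal goats at an unadjusted p under 0.05, against 3.51% of all genes. At the same p 1, AGRP, was lower, against 1.65% of all genes. Of the 7, 0 passed the adjusted threshold, and the part of these markers in the subunit levels was not tested. The vasopressin gene AVP was listed at 0 in all 6 libraries, and a 0 in this table was not read as absence. The 7 of 8 listed markers of forebrain outside the hypothalamus summed to between 26.4 and 26.8 FPKM in pubertal and between 18.6 and 26.2 FPKM in prepubertal goats.

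All 7 subunit genes were well expressed, and all passed the minimum mean of 0.1 FPKM for testing. GABRG1 had the highest level, 76.9 ± 14.1 FPKM (SD, n = 6 libraries). GABRB1 with 51.9 ± 6.67, GABRA3 with 50.7 ± 3.87, GABRA2 with 47.9 ± 3.47 and GABRB2 with 40.97 ± 6.92 FPKM (SD, n = 6 each) followed. GABRA4 with 20.7 ± 2.54 and GABRA5 with 19.6 ± 2.92 FPKM (SD, n = 6 each) were lowest. Among the 16397 genes tested, their mean levels lay between the percentiles 67.7 for GABRA5 and 91.8 for GABRG1. The plot of FPKM by gene shows these levels in each library.

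**Figure D1:**
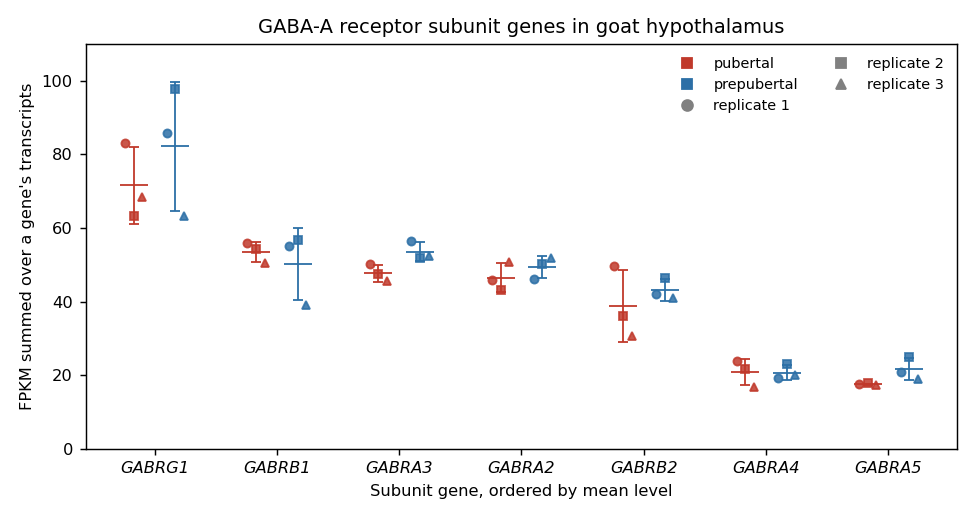
FPKM (y axis, summed over a gene's transcripts) of the 7 subunit genes in each library, by stage and replicate number; the horizontal bar is the mean and the error bar the SD of 3 goats. The stages overlap for 5 genes, while the 3 pubertal values of GABRA3 and of GABRA5 lie below all 3 prepubertal values.

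By mean level GABRG1 stood above 4 genes of similar level, and GABRA4 and GABRA5 stood below them, but neither step passed the adjusted threshold of 0.05. GABRG1 exceeded GABRB1 in 6 of 6 libraries, by a mean of 1.47-fold, and GABRB2 exceeded GABRA4 in 6 of 6 libraries, by 1.96-fold (two-sided, by exact permutation of the signs, p = 0.03125 for each, the smallest 6 libraries allow, 0.0938 after Benjamini-Hochberg adjustment over the 6 neighbouring pairs). The neighbours GABRB1 and GABRA3 differed by 1.02-fold (adjusted exact p = 0.812), GABRA3 and GABRA2 by 1.06-fold (0.422), GABRA2 and GABRB2 by 1.18-fold (0.188), and GABRA4 and GABRA5 by 1.06-fold (0.562). These 4 pairs did not differ beyond the spread between libraries. The steps from GABRG1 to GABRB1 and from GABRB2 to GABRA4 were at that smallest p. Adjustment over 6 pairs leaves it above 0.05 unless further pairs reach it too. The adjusted test therefore cannot decide these steps, whose direction was the same in 6 of 6 libraries. The pairs were also taken from the order of these same mean levels. With only the most abundant transcript of each gene, GABRA2 stood above GABRA3, by 0.13 on the log2 scale.

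Genes that lie side by side in the genome differed in level. In the RefSeq table of the goat ARS1.2 assembly, used for names and neighbours only, GABRG1 is followed by GABRA2, and GABRA4 by GABRB1, with 1 other coding gene between the pairs. This run of 4 subunit genes held both the highest level, GABRG1, and the second lowest, GABRA4. GABRB2 lies beside GABRA6.

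Among the alpha subunits, GABRA5 had the largest stage difference. It encodes the alpha5 subunit, best known from extrasynaptic receptors that carry tonic inhibition. Its only transcript, XM_005694919.1, was at 17.6, 17.7 and 17.4 FPKM in the pubertal libraries against 20.98, 24.9 and 18.9 FPKM in the prepubertal libraries. The pubertal values were nearly identical and all lay below the prepubertal ones, of which replicate 2 was the highest. On the log2(FPKM + 1) scale the difference was -0.27 (95% interval -0.53 to -0.02, standard error 0.11, n = 3 per stage), with an unadjusted p of 0.0385 and an adjusted p of 0.939 in limma. It did not pass the adjusted threshold of 0.05. Without prepubertal replicate 2 the difference was -0.17 (limma, unadjusted p = 0.148). Leaving out any of the 3 pubertal libraries or prepubertal replicate 1 instead kept it between -0.29 and -0.27, with an unadjusted p from limma of 0.0649 to 0.0793, and without prepubertal replicate 3 it was -0.36 (unadjusted p = 0.0177).

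GABRA3 encodes the alpha3 subunit, which is frequent on monoamine neurons and in developing brain. Summed over its 4 transcripts it was at 50.2, 47.4 and 45.6 FPKM in the pubertal libraries against 56.5, 51.95 and 52.4 FPKM in the prepubertal libraries. The stages did not overlap, although the gap between pubertal replicate 1 and prepubertal replicate 2 was small. The log2 fold change was -0.16 (95% interval -0.35 to 0.02, n = 3 per stage, limma unadjusted p = 0.079, adjusted p = 0.962). Among these 7 genes, GABRA3 and GABRA2 varied least between libraries, with an SD of 0.108 and 0.103 on log2(FPKM + 1) against a median of 0.133 over the 7136 genes of 10 to 100 FPKM.

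GABRA2 encodes the alpha2 subunit, found at inhibitory synapses on cell bodies and the start of the axon. It was at 45.8, 43.03 and 50.7 FPKM in the pubertal libraries against 46.1, 50.1 and 51.9 FPKM in the prepubertal libraries. The stages overlapped, and the highest and lowest library differed by only 1.21-fold. The log2 fold change was -0.09 (95% interval -0.30 to 0.13, limma adjusted p = 0.962). GABRA4, the alpha4 subunit, which often pairs with delta outside synapses, was at 23.8, 21.6 and 16.9 FPKM in the pubertal libraries against 19.1, 22.9 and 20.1 FPKM in the prepubertal libraries. Pubertal libraries held both its highest and its lowest value, and its log2 fold change was -0.01 (95% interval -0.32 to 0.31, limma adjusted p = 0.999).

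The beta subunits form the GABA binding site together with alpha. GABRB1 was at 55.8, 54.2 and 50.6 FPKM in the pubertal libraries against 54.999, 56.6 and 38.9 FPKM in the prepubertal libraries. Prepubertal replicate 3 stood apart below the other libraries, which lay within 50.6 to 56.6 FPKM. The log2 fold change was 0.11 (95% interval -0.22 to 0.44, limma adjusted p = 0.969), and it was -0.06 without that library.

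GABRB2, summed over its 2 transcripts, was at 49.7, 36.002 and 30.6 FPKM in the pubertal libraries against 42.1, 46.4 and 41.01 FPKM in the prepubertal libraries. The pubertal goats spread on both sides of the prepubertal ones, with an SD of 9.85 against 2.88 FPKM. The log2 fold change was -0.18 (95% interval -0.55 to 0.20, limma adjusted p = 0.962). Leaving out pubertal replicate 1 took it to -0.37, and leaving out pubertal replicate 3 to -0.03.

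GABRG1 encodes the gamma1 subunit, which has a restricted distribution in the brain that includes the hypothalamus and amygdala. It was at 83.2, 63.2 and 68.4 FPKM in the pubertal libraries against 85.7, 97.7 and 63.2 FPKM in the prepubertal libraries. The lowest value of each stage was the same to 3 digits, and the stages overlapped. On the log2 scale the stages differed by -0.18 (95% interval -0.57 to 0.21, limma adjusted p = 0.962). It was -0.36 without prepubertal replicate 3 and -0.05 without prepubertal replicate 2. Its spread over the libraries, an SD of 0.259 on log2(FPKM + 1), was larger than that of 91.9% of the genes of 10 to 100 FPKM.

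Of the 7 genes, 0 had an adjusted p under 0.05 in limma, as did 0 of all 16397 genes tested, a background of 0%. At an unadjusted p under 0.05 there was 1 of 7, GABRA5, lower in pubertal goats, against 1.65% of all genes, and 0 of 7 were higher, against 3.51%. The stages did not overlap for 2 of 7, GABRA3 and GABRA5, both lower, against 3.84% of all genes, and for 0 of 7 in the higher direction, against 5.91%. The count at an unadjusted p under 0.05 was 0 with neuron centring or the replicate block. It was 2 with no minimum or with the most abundant transcript only, and 0 to 2 on leaving out 1 library. Without pubertal replicate 1 the 2 were GABRA3 (limma unadjusted p = 0.0292) and GABRB2 (0.00925), and without prepubertal replicate 3 they were GABRA5 and GABRG1 (0.0395). With no minimum GABRA3 joined GABRA5 (limma unadjusted p = 0.0275), as it did with the most abundant transcript only (0.0428). The log2 fold change was below 0 for 6 of 7, with a median of -0.16, against 50.2% of all genes and a median of -0.00065. Whether fewer cells carrying a subunit or less of its RNA per cell underlies a value cannot be told apart in bulk tissue.

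Markers of neurons, the cells that carry most of these receptors, were also mostly below 0 without passing the test. Of the 10 neuron markers listed, 9 were in the table, and 8 of these had a log2 fold change below 0, with a median of -0.08 and 0 past the adjusted threshold. Their summed level ran from 1523 to 1901 FPKM in pubertal and from 1710 to 1852 FPKM in prepubertal goats, and none of the 9 was at 0. STMN2, a microtubule regulator of neurons, averaged 388.8 FPKM at puberty against 455.3 FPKM before it (limma log2 fold change -0.23, adjusted p = 0.962), and SNAP25, a protein of transmitter release, 505.4 and 524.4 FPKM (-0.05, adjusted p = 0.979). With each library centred on these markers, the median log2 fold change of all genes moved to 0.10, and 4 of the 7 subunit genes were below 0. GABRA5 was then at -0.17 (limma, unadjusted p = 0.265), GABRA3 at -0.06, GABRA2 at 0.02, GABRA4 at 0.10, and GABRB1 at 0.21. Relative to the median of all genes under that centring, GABRA2 and GABRA4 were again at or below it.

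**Figure D2:**
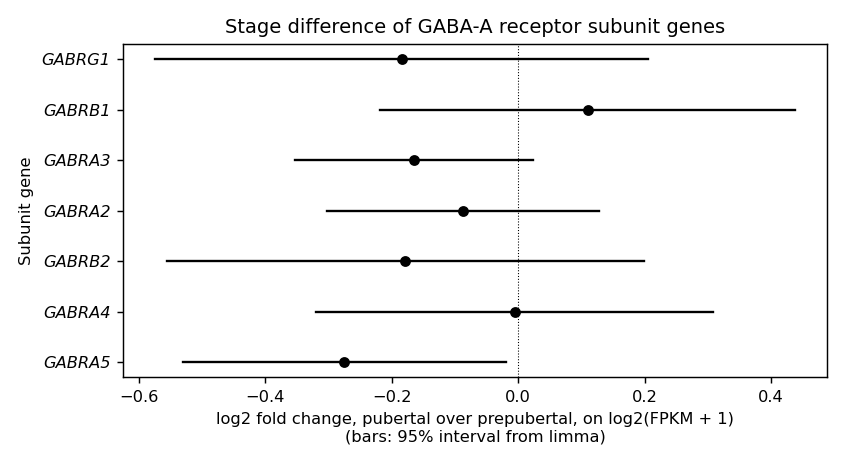
log2 fold change of pubertal over prepubertal goats (x axis, on log2(FPKM + 1)) with its 95% interval from limma, for the 7 genes, ordered by mean level from top to bottom. The interval of GABRA5 lies below 0 before adjustment, and those of the other 6 include 0.

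The 7 genes were then expressed as shares of their summed FPKM. The sum was 326.02, 283.1 and 280.2 FPKM in the pubertal libraries against 325.4, 350.7 and 286.5 FPKM in the prepubertal libraries. It overlapped between the stages, and prepubertal replicate 2 had the highest value. GABRG1 supplied 24.8% ± 2.28 of the sum, GABRB1 16.8% ± 1.89, GABRA3 16.5% ± 1.27, GABRA2 15.7% ± 1.94, GABRB2 13.2% ± 1.48, GABRA4 6.73% ± 0.698 and GABRA5 6.34% ± 0.564 (SD, n = 6 each). No gene held more than 27.9% or less than 5.38% in any library.

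**Figure D3:**
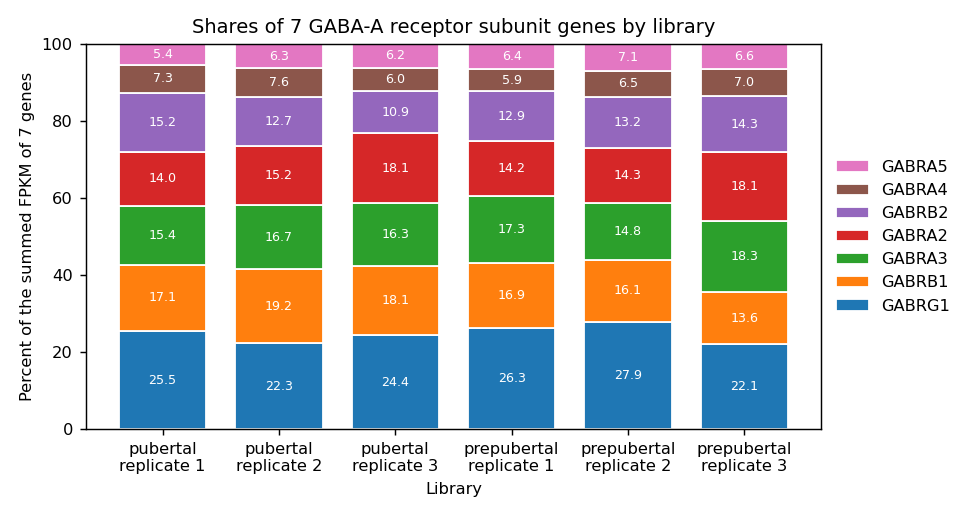
Percent of the summed FPKM of the 7 genes (y axis) held by each gene in the 3 pubertal and 3 prepubertal libraries (x axis). The share of GABRB1 runs from 17.1% to 19.2% in pubertal and from 13.6% to 16.9% in prepubertal libraries.

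The shares of GABRB1 and GABRA5 did not overlap between the stages. GABRB1 held 17.1%, 19.2% and 18.1% in pubertal and 16.9%, 16.1% and 13.6% in prepubertal replicates 1, 2 and 3. The difference of 2.57 percentage points (18.1% ± 1.02 against 15.5% ± 1.73, SD, n = 3 each) had an exact permutation p of 0.1, the smallest that 3 against 3 allows, and 0.35 after adjustment over the 7 shares. The gap between pubertal and prepubertal replicates 1 was only that from 17.1% to 16.9%, and without prepubertal replicate 3 the difference was 1.59 points. GABRA5 held 5.38%, 6.27% and 6.22% in pubertal and 6.45%, 7.10% and 6.61% in prepubertal replicates 1, 2 and 3, a difference of -0.76 percentage points (two-sided exact permutation p = 0.1, adjusted 0.35). Without pubertal replicate 1 it was -0.47 points, and with all listed subunits as the denominator -0.32 points (exact permutation p = 0.4). An exact permutation test of 3 against 3 cannot reach a p under 0.05, and no model was fitted to these shares. The other 5 shares overlapped, with differences between -1.34 points for GABRG1 and 0.51 points for GABRA4 (exact permutation p between 0.4 and 1). On leaving out 1 library that of GABRG1 ran from -3.02 points, without prepubertal replicate 3, to -0.12 points, without prepubertal replicate 2.

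Within the alpha subunits, GABRA3 and GABRA2 made up most of the RNA. GABRA3 held 36.5% ± 1.75, GABRA2 34.5% ± 2.47, GABRA4 14.9% ± 1.78 and GABRA5 14.1% ± 1.41 of the 4 alpha genes (SD, n = 6 libraries each). All 4 shares overlapped between the stages (exact permutation p between 0.3 and 0.7). Together the 4 alpha genes were at 137.3, 129.7 and 130.6 FPKM in the pubertal libraries against 142.7, 149.9 and 143.3 FPKM in the prepubertal libraries, and the stages did not overlap for this sum. Between the 2 beta genes, GABRB1 held 58.4% ± 4.92 in pubertal and 53.4% ± 4.18 in prepubertal goats (SD, n = 3 each, exact permutation p = 0.3), and it held less than GABRB2 only in prepubertal replicate 3, with 48.7%.

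Transcripts could be told apart for GABRA3 and GABRB2, since the other 5 genes had 1 transcript each in the table. The 4 transcripts of GABRA3 are between 3688 and 3757 nt long. Such similar models share most of their reads, so the division between them rests on the authors' assignment of fragments. XM_005700489.2 (3692 nt) was the main form and was at 43.4, 41.2 and 35.3 FPKM in the pubertal libraries against 51.5, 44.4 and 47.6 FPKM in the prepubertal libraries. It was lower in all 3 pubertal libraries, with a log2 fold change of -0.26 (95% interval -0.50 to -0.01, limma unadjusted p = 0.0425, adjusted p = 0.972).

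XM_013976329.1 (3691 nt), the next form of GABRA3, had the opposite sign. It was at 6.35, 4.87 and 7.26 FPKM in the pubertal libraries against 4.26, 5.24 and 2.94 FPKM in the prepubertal libraries, and pubertal replicate 2 lay below prepubertal replicate 2. The fitted difference on the log2 scale was 0.49 (95% interval -0.02 to 0.995, limma unadjusted p = 0.0568, adjusted p = 0.972). Without prepubertal replicate 3 it was 0.31 (limma unadjusted p = 0.181), and without prepubertal replicate 2 it was 0.64 (0.0291). The remaining forms were minor. XM_005700488.2 ran from 0.152 to 2.08 FPKM, a 13.7-fold range that did not follow the stages, and XM_013976330.1 from 0.344 to 1.204 FPKM.

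As a share of GABRA3, XM_013976329.1 held 12.7%, 10.3% and 15.9% in pubertal and 7.55%, 10.1% and 5.61% in prepubertal replicates 1, 2 and 3. The stages did not overlap, but pubertal replicate 2 and prepubertal replicate 2 nearly met. The difference was 5.21 percentage points (95% interval -0.35 to 10.8, limma unadjusted p = 0.0617, adjusted p = 0.977 over 10675 transcripts of genes with several). The main form XM_005700489.2 held 83.6% ± 5.41 in pubertal and 89.2% ± 3.15 in prepubertal goats (SD, n = 3 each, limma adjusted p = 0.977). Transcripts whose share did not overlap and was higher in pubertal goats made up 4.72% of those tested, and 1 of the 6 from GABRA3 and GABRB2 was among them. In the lower direction there were 0 of 6, against 4.65%, and an unadjusted p under 0.05 was found for 0 of 6 in either direction, against 2.16% higher and 2.24% lower. The share difference was below 0 for 3 of 6, against 49.8% of those tested. These signs are partly fixed in advance, since a rise of 1 share within a gene is a fall of the others. The 2 shares of GABRB2 must have opposite signs, so this count was not read as a result.

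**Figure D4:**
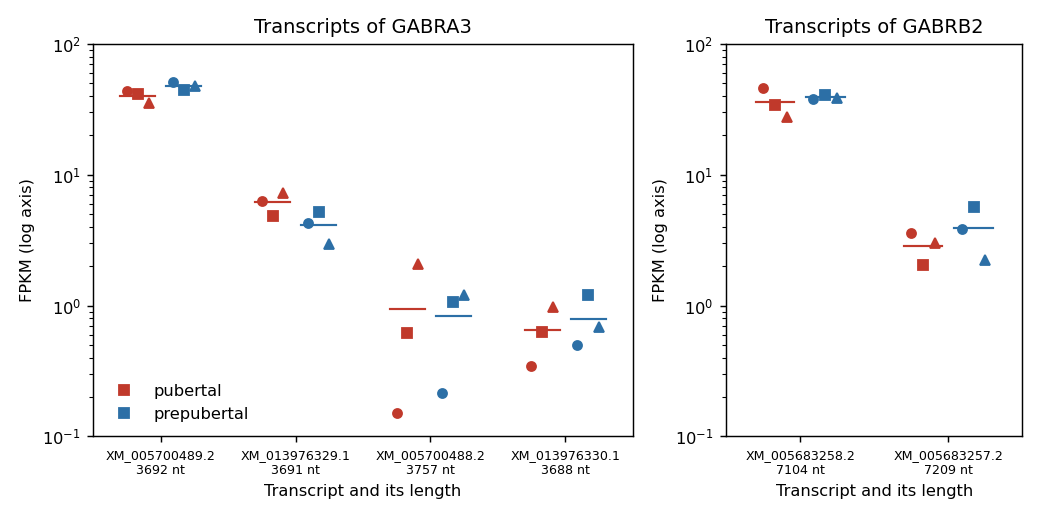
FPKM on a log axis (y axis) of the 4 transcripts of GABRA3 and the 2 of GABRB2 in each library, by stage (colour) and replicate (circle 1, square 2, triangle 3), with the mean of 3 goats as a bar. One form dominates each gene, at 43.9 FPKM for GABRA3 and 37.6 FPKM for GABRB2 over the 6 libraries.

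GABRB2 was nearly all XM_005683258.2 (7104 nt), at 46.1, 33.9 and 27.6 FPKM in the pubertal libraries against 38.2, 40.7 and 38.8 FPKM in the prepubertal libraries. This form held 92.4% ± 2.07 of the gene in pubertal and 91.05% ± 3.46 in prepubertal goats (SD, n = 3 each), a difference within the spread (limma adjusted p = 0.995). The longer XM_005683257.2 (7209 nt) ran from 2.05 to 5.72 FPKM. Of the 11 transcripts of the 7 genes, 0 had an adjusted p under 0.05 (background 0% of 23821 transcripts). An unadjusted p under 0.05 was found for 2, both lower in pubertal goats, against 2% of all transcripts, and these were XM_005694919.1 of GABRA5 and XM_005700489.2 of GABRA3. That count, in either direction, was 0 without a trend or with the replicate block, and 1 with quantile normalization or neuron centring. Here the centring used every transcript of the marker genes. It moved the median log2 fold change of all transcripts to 0.024, against 0.10 for genes under the gene centring. On leaving out 1 library the count was 0 to 2, with 0 without pubertal replicate 3 and 0 without prepubertal replicate 1. With all 6 libraries and the trend, the same 2 were the transcripts without overlap between the stages in the lower direction, against 4.04% of all transcripts. In the higher direction there were 0 of 11 by either measure, against 2.87% and 5.52%. There were 8 of 11 transcripts with a log2 fold change below 0, against 50% of all.

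The 7 genes supplied a little more than the other subunits of the family. There were 12 other GABA-A subunit genes in the table, and the 7 held between 57.2% and 60.2% of the FPKM of all 19 except in prepubertal replicate 3, with 55.4%. In pubertal goats they held 58.6% ± 1.39 and in prepubertal goats 56.7% ± 1.18 (SD, n = 3 each).

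Of the 12 other subunits, 9 passed the minimum of 0.1 FPKM, and 0 had an adjusted p under 0.05 in limma. At an unadjusted p under 0.05 there was 1 of 9, against 1.65% of all genes in the lower direction, and this was GABRE, the epsilon subunit, which was chosen for naming after its values were seen. It was at 27.4, 29.2 and 30.4 FPKM in the pubertal libraries against 39.6, 39.5 and 29.4 FPKM in the prepubertal libraries, and prepubertal replicate 3 lay within the pubertal range. The log2 fold change was below 0 for 7 of the 9, against 50.2% of all genes, with a median of -0.18. GABRA6, the alpha6 subunit known from cerebellar granule cells, was listed at 0 in all libraries, and GABRP and GABRR3 were below the minimum.

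Of 8 genes that make, load, take up or break down GABA, 8 were tested and 0 had an adjusted p under 0.05 in limma. At an unadjusted p under 0.05 there were 2 of 8, ALDH5A1 and SLC32A1, both lower in pubertal goats, against 1.65% of all genes. The stages did not overlap for 3 of 8, these and ABAT, all lower, against 3.84%, and 6 of 8 had a log2 fold change below 0 (median -0.14), against 50.2%. Their summed level ran from 402.002 to 416.2 FPKM in pubertal and from 450.9 to 471.2 FPKM in prepubertal goats, and ALDH5A1 supplied more of this gap than any other gene. SLC6A13, a GABA transporter named after its values were seen, lay on the other side, with 32.01 FPKM in pubertal replicate 3 against 3.65 to 5.05 FPKM in the other libraries (log2 fold change 1.04, limma unadjusted p = 0.122). ABAT, the transaminase that degrades GABA, had 140.6 and 149.9 FPKM (limma log2 fold change -0.09, adjusted p = 0.962), and GAD1, which makes GABA from glutamate, 61.6 and 73.3 FPKM (-0.24, adjusted p = 0.962).

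ALDH5A1 and SLC32A1 were also named after their values were seen. ALDH5A1, the succinic semialdehyde dehydrogenase that completes GABA breakdown, was at 27.02, 41.7 and 40.6 FPKM in the pubertal libraries against 66.4, 67.6 and 61.98 FPKM in the prepubertal libraries. Every pubertal goat was below every prepubertal goat. Pubertal minus prepubertal goats gave a log2 value of -0.85 (95% interval -1.21 to -0.48, limma adjusted p = 0.586). SLC32A1, the vesicular GABA transporter, was at 14.3, 15.02 and 11.5 FPKM in the pubertal libraries against 16.04, 16.9 and 16.9 FPKM in the prepubertal libraries (log2 fold change -0.27, limma adjusted p = 0.958). Its stages did not overlap either.

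The libraries were not equally placed in the ranges of the 7 genes. Pubertal replicate 3 was the lowest library for 4 of the 7 genes and pubertal replicate 2 for 2, while prepubertal replicate 2 was the highest for 3 and pubertal replicate 1 for 2. Pubertal replicate 3 also had 309 FPKM of TTR, a choroid plexus gene, against 1.14 to 53.4 FPKM in the other libraries, and its part in these levels was not tested. Summed choroid plexus markers (5 of 5 in the table) ran from 3.84 to 326 FPKM in pubertal and from 6.22 to 56.05 FPKM in prepubertal goats. Anterior pituitary markers (5 of 6 in the table) summed to between 52.8 and 66 FPKM in pubertal and between 3.67 and 20.9 FPKM in prepubertal goats, most of it CGA, the common alpha subunit of pituitary glycoprotein hormones. Of the 5, CGA and TSHB had an unadjusted p under 0.05 in limma, both higher in pubertal goats, against 3.51% of all genes. The part of such tissue in the subunit levels was not tested.

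The summed markers of the other cell types overlapped between the stages. Astrocyte markers (7 of 7) summed to between 4269 and 4590 FPKM in pubertal and between 4343 and 4513 FPKM in prepubertal goats, and microglia markers (6 of 6) to between 259.1 and 305.2 against 250.2 to 287.8 FPKM. Oligodendrocyte precursor markers (3 of 5) summed to between 67.6 and 70.9 against 68.6 to 71.9 FPKM, and endothelial markers (4 of 5) to between 25.7 and 36.5 against 21.04 to 29.0 FPKM. Oligodendrocyte markers (7 of 7) ran from 1489 to 4666 FPKM in pubertal and from 1099 to 2292 FPKM in prepubertal goats. At an unadjusted p under 0.05 there was 1 of 7 astrocyte markers, ALDH1L1, 1 of 6 microglia markers, C1QA, and 1 of 4 endothelial markers, VWF. All were higher in pubertal goats, against 3.51% of all genes. The stages did not overlap for ALDH1L1, C1QA and VWF, against 5.91% of all genes in the higher direction. No gene of these lists passed the adjusted threshold of 0.05 in limma.

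The pattern of the summed members over the 6 libraries was closest to that of FAM171B. Among 8147 genes that were no member, had a mean of at least 1 FPKM and varied at least as much as the sum, the smallest root mean square difference of log2(FPKM + 1), each gene centred on its own mean, was 0.027 for FAM171B, followed by 0.036 for LSM1 and 0.036 for BMT2. FAM171B was at 67.7, 57.5 and 57.98 FPKM in the pubertal libraries against 69.8, 74.5 and 61.3 FPKM in the prepubertal libraries, highest in the library where the sum was highest. Among the members, the closest pairs by this measure were GABRA4 and GABRB2 (0.132) and GABRA2 and GABRA3 (0.133), and GABRB1 was farthest from its nearest member, GABRG1 (0.184).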

How the data were processed

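Hypothalamus of 3 pubertal and 3 prepubertal goats was studied, with groups and replicate numbers taken from the sample titles. Reads were aligned with TopHat and assembled with Cufflinks and Scripture, and the deposited values are FPKM of each transcript in each library, made by the authors with Cufflinks 2.1.1 and Cuffdiff 2.1.1 per the submitters' notes and the study's methods. The genome build is not given in the sources used here. Transcripts were paired with genes through the deposited comparison table, whose group FPKM, fold changes and p-values from Cuffdiff were not used, and with symbols through a RefSeq table (ARS1.2), to which 19083 of 20225 genes (94.4%) matched. The lncRNA files were not used.

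The FPKM tables hold no counts, and low values were no whole multiples of a read, so no count model or counting interval was possible. FPKM was summed by gene. limma 3.58.1 in R 4.3.3 (lmFit, eBayes with a trend, two-sided) was fitted to log2(FPKM + 1) over genes and, separately, transcripts averaging 0.1 FPKM or more, and to transcript shares in percent (mean share of at least 1%, gene mean of at least 1 FPKM), with Benjamini-Hochberg adjustment over all features tested and a threshold of 0.05. Fold changes on this scale understate changes of low values. The fits were also run on simulated data. The outcome is not given here, so it says nothing on whether differences as small as those of the subunits could be detected. Subunit shares and level order were tested by exact permutation in Python 3.11.15. The alternatives were another pseudocount, other minimums, quantile normalization, centring on the median or on neuron markers, no trend, the replicate number as a block, the most abundant transcript, an arcsine scale, other denominators, each stage alone and leaving out each library.

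The members and lists were chosen with earlier results of these data known. Beside the 7 members and their transcripts, the rule named the 2 genes of highest mean FPKM in a list and any with an adjusted p under 0.05, and the 3 genes closest to the members' sum. Some genes that the rule named are not reported here. GABRE, GABRA6, GABRP, GABRR3, ALDH5A1, SLC32A1, SLC6A13, AGRP and AVP were named after their values were seen. So were POMC, GNRH1, SIM1, OTP, ALDH1L1, C1QA and VWF. The limma p-values rest on the spread between single goats of each stage, with each variance drawn toward a trend over all features tested. Those of the level order pool the 6 libraries of both stages.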

Additional observations from a re-analysis of the deposited data

How the results depend on the processing

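No subunit gene, transcript or share passed the adjusted threshold under any alternative that was run. For the subunit shares this was fixed in advance. Their exact tests cannot go below a p of 0.1 with 3 goats per stage, so they say nothing on robustness. Of 441 values of the 7 genes under alternatives, 30 had the other sign, 8 of them outside leaving out 1 library. Many of the 441 could not change sign, so these counts do not measure how stable the signs are. Other minimums, no trend and the replicate block leave a difference as it was. The most abundant transcript leaves the log2 fold change of a gene with 1 transcript as it was. The reads behind a gene are not known, the stages differ in age as well as puberty, and 3 goats per stage limit the precision. Over all genes, limma called 0 genes, 2 with centring on the neuron markers and 0 to 4 on leaving out 1 library. It called 0 transcripts, 3 with no minimum and 0 to 1 on leaving out 1 library, and 0 transcript shares, 0 to 2 on leaving out 1 library. The cause was not tested. Genes higher against lower at an unadjusted p under 0.05 numbered 575 and 271, but 462 and 375 after quantile normalization, 922 and 62 with neuron centring and 981 and 1239 without pubertal replicate 1.

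Neighbouring subunits kept 1 order in every library for 2 of 6 pairs, for 4 in prepubertal goats alone, and for 2 to 3 on leaving out 1 library. The log2 ratio of GABRA3 to GABRA2 was -0.13 with the most abundant transcript only, and in prepubertal goats alone that of GABRB1 to GABRA3 was -0.11 and that of GABRA4 to GABRA5 -0.056. With neuron centring GABRA2 was at 0.017 and GABRA4 at 0.10. XM_005700488.2 was at -0.10 with a pseudocount of 0.1, -0.037 after quantile normalization and -0.0085 after median centring.

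Leaving out 1 library at a time gave log2 fold changes of -0.11 to 0.13 for GABRA4, -0.059 to 0.20 for GABRB1, -0.38 to 0.33 for XM_005700488.2, -0.26 to 0.038 for XM_013976330.1, 0.31 to 0.64 for XM_013976329.1, -0.32 to -0.17 for XM_005700489.2 and -0.35 to 0.012 for XM_005683258.2. The log2 ratio of GABRB1 to GABRA3 ran from -0.0077 to 0.12. Differences in the share of the 7 genes, in percentage points, ran from -0.91 to 1.54 for GABRA2, -1.69 to 0.0533 for GABRA3, -1.68 to 0.484 for GABRB2, 1.59 to 3.24 for GABRB1, -0.916 to -0.475 for GABRA5, -3.02 to -0.12 for GABRG1 and 0.195 to 0.986 for GABRA4. Those of the alpha genes ran from -0.742 to 2.22 for GABRA2 and -2.07 to 0.379 for GABRA3. Those of a gene's transcripts ran from -0.779 to 1.35 for XM_005700488.2, -0.492 to 0.294 for XM_013976330.1, -3.16 to 0.299 for XM_005683257.2 and -0.299 to 3.16 for XM_005683258.2.

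Same-numbered goats shared only a number: deviations from the stage means correlated with r of -0.03, -0.11 and 0.09 across genes, and not every library correlated best with its own number. With the replicate block, limma called 1 of all genes and 0 of the 7, and GABRA5 had an unadjusted p of 0.0542 (adjusted p = 0.968).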

Other observations

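Of 11 anchoring and trafficking genes listed, 10 were in the table, 0 had an adjusted or an unadjusted p under 0.05 in limma, and 7 had a log2 fold change below 0 (median -0.02). SHISA7, an auxiliary subunit of GABA-A receptors, was the most abundant, at 831.4, 352.9 and 469.3 FPKM in the pubertal libraries against 405.5, 362.9 and 229.9 FPKM in the prepubertal libraries (limma log2 fold change 0.67, adjusted p = 0.962). Pubertal replicate 1 stood apart at the top. GABARAPL1, a relative of the receptor-associated protein GABARAP, averaged 252.1 FPKM at puberty against 258.1 FPKM before it (limma log2 fold change -0.03, adjusted p = 0.993).

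The metabotropic GABA-B receptor needs both GABBR1 and GABBR2. GABBR1 averaged 98.9 FPKM at puberty against 101.2 FPKM before it (limma log2 fold change -0.04, adjusted p = 0.988), and GABBR2 had 21.8 and 21.3 FPKM (0.03, adjusted p = 0.990). The balance of SLC12A2, which loads chloride into cells, and SLC12A5, which extrudes it, sets whether opening of GABA-A receptors inhibits or excites a neuron. SLC12A2 had 51.01 and 46.3 FPKM (limma log2 fold change 0.11, adjusted p = 0.973), with 67.5 FPKM in pubertal replicate 1 against 40.3 to 52.99 FPKM elsewhere. SLC12A5 had 32.5 and 35.8 FPKM (-0.13, adjusted p = 0.962).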
